A study of Mus musculus with 68 samples.

Results

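Slc10a2, Fabp6, Slc51a, Slc51b, Fgf15, Nr1h4 and Nr0b2, the genes of ileal bile acid uptake and of the Fgf15 signal, were taken by symbol from a table of FPKM values (fragments per length of transcript and per number of mapped fragments) in mouse intestine. All 7 were among its 23356 rows. They were chosen for their known function, though with earlier results of these data known. Most bile acids secreted by the liver are recovered in the terminal ileum and returned by the portal vein. Slc10a2 carries them across the apical membrane of the enterocyte, Fabp6 binds them in the cytosol, and Slc51a and Slc51b together form the basolateral exporter. Inside the cell bile acids activate the nuclear receptor encoded by Nr1h4 (farnesoid X receptor), which induces Fgf15, a hormone that lowers bile acid synthesis in the liver, and Nr0b2 (small heterodimer partner), a repressor.

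The study asked how loss of Cftr, the epithelial chloride channel mutated in cystic fibrosis, acts on the intestine with and without the ApcMin allele, a truncating Apc mutation that causes intestinal tumours. Polyadenylated RNA was sequenced from 23 specimens of C57BL/6 mice aged 3 months, and these fell into 12 groups. With wildtype Apc there were normal colon and normal duodenum, each as 2 Cftr wildtype and 2 Cftr knockout specimens, 2 Cftr knockout duodenal tumours and 1 Cftr knockout colon tumour. With ApcMin there were 2 colon tumours each of Cftr wildtype, heterozygous (called knockdown in the labels) and knockout mice, 2 heterozygous duodenal tumours, and 2 ileum tumours each of Cftr wildtype and knockout mice. In the mice with wildtype Apc the knockout was a floxed Cftr removed by Cre under the Villin promoter, which acts in the intestinal epithelium; how Cftr was altered in the ApcMin mice was not given in the sources used here. The labels call the colon whole tissue and the duodenum epithelium, and they give no position along the ileum. No normal ileum was analysed here, so ileum tumours could be set only against other organs. The ApcMin tumours of 1 organ and 1 Cftr genotype carried a single animal number, and the colon and ileum tumours of the wildtype shared theirs, as did those of the knockout. P-values here therefore measure the spread between specimens, and the genotype of ileum tumours cannot be told apart from the animal.

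The gene models lie on 7 chromosomes of GRCm38 (GENCODE M21). Slc10a2 is at chr8:5083219-5105351, Fabp6 at chr11:43596049-43601540, Slc51a at chr16:32474504-32487879, Slc51b at chr9:65412714-65422955 and Nr1h4 at chr10:89454234-89533585, all on the minus strand. Fgf15 is at chr7:144896531-144900953 and Nr0b2 at chr4:133553376-133556536, on the plus strand. Each value is for the whole gene. Slc51a overlaps Pcyt1a, Slc51b overlaps Rasl12, and Fgf15 overlaps the antisense genes Gm26793 and Gm39119, and no strand-specific counting was stated for these.

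RefSeq promoter sequences (GRCm38.p6) were at hand for 6 of the 7 genes, all but Fgf15, and the 250 bases before each start were searched for 2 motifs. The first was the inverted repeat bound by the farnesoid X receptor, spelled as GGTNA, any base, then TNACC, which reads alike on both strands. It was found in Fabp6 and Slc51b, 2 of the 6, against 0.219% of 32851 promoter windows of that length. The second was the HNF1 site, spelled as GTTAAT, any base, then ATTAA, and searched on both strands. It was found in Slc10a2, 1 of the 6, against 0.0609% of the windows. Neither motif overlapped the other, and a match describes letters, not binding. The starts are those of RefSeq. The Nr1h4 window, chr10:89506659-89506908, lay inside the gene model given above, so its start was an internal one. The Slc51b stretch shown spans the end of its gene model at 65422955. The stretches are shown because they hold the matches. Fabp6 is shown over chr11:43601563-43601812, with matches at -221 to -211 and -141 to -131 from the start; Slc51b over chr9:65422940-65422969, with its match at -186 to -176; and Slc10a2 over chr8:5105352-5105537, with its match on the opposite strand at -223 to -212. All are written 5′ to 3′ on the minus strand, with the match in capitals.
Fabp6: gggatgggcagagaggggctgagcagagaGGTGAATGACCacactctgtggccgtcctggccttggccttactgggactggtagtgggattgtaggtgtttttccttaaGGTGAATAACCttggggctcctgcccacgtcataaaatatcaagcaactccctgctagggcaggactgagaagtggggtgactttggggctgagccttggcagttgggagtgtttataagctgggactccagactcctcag
Slc51b: gcattcgtggGGTCATTCACCctggactgg
Slc10a2: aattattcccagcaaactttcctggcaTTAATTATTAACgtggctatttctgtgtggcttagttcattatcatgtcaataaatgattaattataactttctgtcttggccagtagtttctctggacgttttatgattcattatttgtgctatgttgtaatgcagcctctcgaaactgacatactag

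The library depth is unknown, since FPKM values keep no read counts; the columns summed to between 476161 and 801155 FPKM. A total of 15 specimens were read in sequencing run 1 and 19 in run 2, 11 of them in both. All ileum tumours were read in run 2 alone and all heterozygous tumours in run 1 alone. The 2 wildtype duodenum specimens differed by no more than lanes of 1 library (0.892 times the spread expected from lanes in run 1, against 2.05 to 7.84 times in the other groups) and were counted as 1 sample in tests. Cftr gene-level FPKM checked no label, because it stayed at 25.9 to 30.5 in knockout colon against 21.7 to 22.2 in wildtype colon. The female transcript Xist was at 24.0 to 55.6 in the ApcMin tumours and at most 0.461 in normal tissue, so comparisons of ApcMin tumours with normal tissue also compare the sexes. In the 2 knockout duodenal tumours with wildtype Apc it was 34.2 in one and 0.0212 in the other.

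One specimen went against its label in some segment markers and is given separately throughout. In the specimen labelled heterozygous ApcMin duodenal tumour 2, Pdx1, the transcription factor of the duodenum, was at 0.0363 FPKM, while the 7 other duodenal specimens had 2.85 to 69.4 and the ileum tumours 0.151 to 0.275. Gata4, a transcription factor of the proximal small intestine, was at 13.5 against 52.5 to 82.4 in the other duodenal specimens and 5.02 to 29.5 in ileum tumours. Cubn, the ileal receptor for cobalamin with intrinsic factor, was at 49.1 against 0.150 to 12.9 and 2.10 to 19.4. It was 1 of 3 listed genes of cobalamin uptake. Amn, at 81.5, was also above both ranges, while Tcn2, at 213.0, lay within the duodenal range of 122.8 to 229.7. The 3 genes summed to 278.8 to 297.1 in normal duodenum and 109.8 to 153.2 in ileum tumours, so as a set they did not mark ileum here. Of 5 duodenal markers, 3 lay within the range of the other duodenal specimens and 2 below it. Across 14094 genes its profile correlated at Pearson's r = 0.971 with knockout ileum tumours, 0.967 with wildtype ileum tumours, 0.963 with the other heterozygous duodenal tumour and 0.952 with knockout duodenal tumours, a description over genes that share libraries. Heterozygous duodenal tumour 1 itself correlated at 0.978 with knockout and 0.969 with wildtype ileum tumours, and at 0.98 with knockout duodenal tumours. These r values therefore separated the organs little. The plot of the genes by group shows it as an open diamond.

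**Figure D1:**
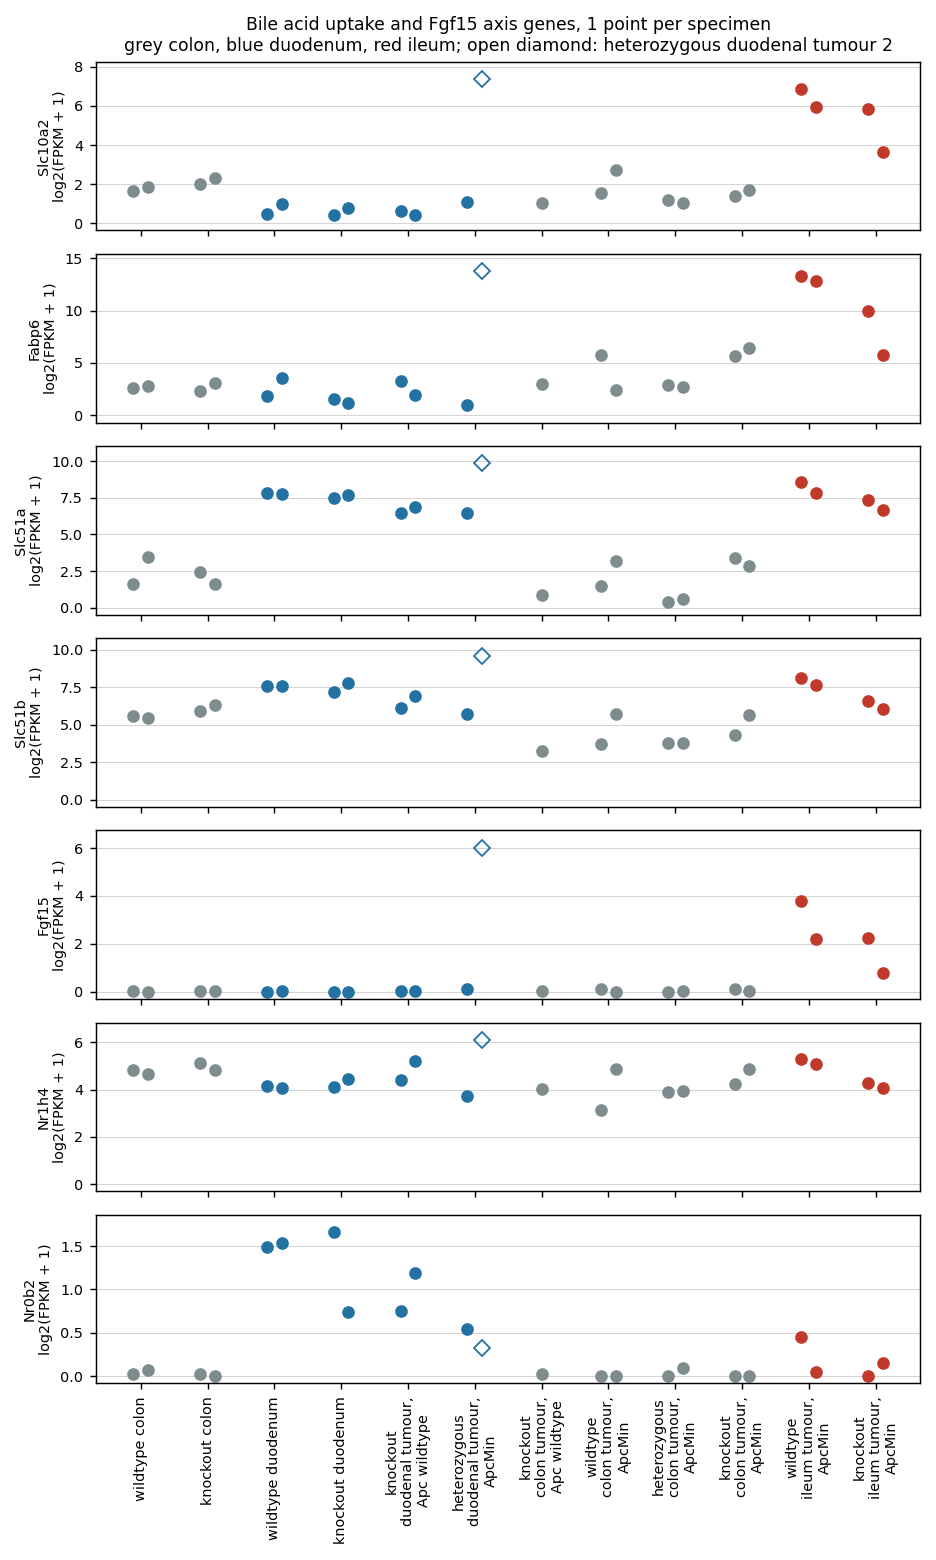
Levels of the 7 genes as log2(FPKM + 1) in each of 23 specimens, by group, on a scale set for each gene. Points are grey for colon, blue for duodenum and red for ileum, and the open diamond is the specimen labelled heterozygous duodenal tumour 2. Slc10a2 and Fgf15 are highest in that specimen and the 4 ileum tumours, as is Fabp6 except in knockout ileum tumour 2, Slc51a is high in all small-intestinal groups, and Nr0b2 is highest in duodenum.

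Slc10a2, the apical bile acid transporter, was measured at 114.6 and 60.7 FPKM in the wildtype ileum tumours and at 55.9 and 11.4 in the knockout ileum tumours. It was 165.2 in the specimen labelled heterozygous duodenal tumour 2. In the 18 other specimens it ranged from 0.331 to 5.62, so all 4 ileum tumours lay above them, 35.3-fold by the ratio of means. Of all tested genes, 1.04% had all 4 ileum tumours above these 18 specimens. The colon ranked next: knockout colon had 3.04 and 4.00, wildtype colon 2.08 and 2.61, and the 7 colon tumours 1.04 to 5.62. Duodenum was lowest, with 0.387 and 0.961 in wildtype, 0.331 and 0.688 in knockout, 0.564 and 0.351 in knockout duodenal tumours and 1.13 in the heterozygous duodenal tumour 1. Neighbouring groups overlapped in their specimens at 6 of the 11 steps of the order of group means, among them wildtype with knockout duodenum.

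Fabp6, the ileal bile acid binding protein, spanned the widest range of the 7 genes. The wildtype ileum tumours had 10027 and 7104 FPKM, the knockout ileum tumours 979.9 and 53.8, and the specimen labelled heterozygous duodenal tumour 2 had 13742. The 18 other specimens ranged from 1.02 to 82.3, and 3 of the 4 ileum tumours lay above all of them. Knockout ileum tumour 2, at 53.8, lay within the ApcMin colon tumours, which had 53.8 and 4.53 in wildtype, 5.38 and 6.39 in heterozygous and 50.1 and 82.3 in knockout mice. Normal colon had 4.15 to 7.38, normal duodenum 1.22 to 10.7, the knockout colon tumour with wildtype Apc 6.89 and the duodenal tumours other than heterozygous 2 had 1.02 to 8.64. Groups below the colon tumours overlapped with their neighbours, except that knockout duodenum, at 1.22 and 1.90, lay below wildtype colon.

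Slc51a and Slc51b, the exporter's subunits, were not limited to ileum. Slc51a was at 390.7 and 227.8 FPKM in wildtype ileum tumours and at 166.3 and 101.8 in knockout ileum tumours. Normal duodenum lay in the same range, with 229.7 and 221.6 in wildtype and 181.5 and 211.3 in knockout, and the 3 duodenal tumours other than heterozygous 2 had 85.8 to 119.1. Every colon specimen was far lower, from 0.316 to 10.2. The ileum tumours were 50.5-fold above the ApcMin colon tumours and 1.05-fold the normal duodenum by ratios of means. The higher of the wildtype colon values, 10.2, came from run 1, where that specimen had 19.1 against 1.25 in run 2; the enterocyte genes Apoa1, Fabp1 and Sis were likewise at 526, 635 and 67.6 in run 1 and at 4.08, 3.40 and 0.348 in run 2.

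Slc51b had 275.2 and 200.6 FPKM in wildtype ileum tumours and 93.5 and 66.8 in knockout ileum tumours. Normal duodenum had 144.0 to 216.9 and the 3 duodenal tumours 50.9 to 121.2. Unlike Slc51a it was well above 0 in colon, at 43.5 to 77.2 in normal colon and 8.66 to 51.9 in colon tumours. All 4 ileum tumours lay above all colon tumours, while knockout ileum tumour 2 lay inside the range of normal colon. The specimen labelled heterozygous duodenal tumour 2 had 931.0 FPKM of Slc51a and 782.7 of Slc51b, 2.38 and 2.84 times the highest ileum tumour.

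Fgf15, the hormone, was near 0 outside the ileum tumours and the specimen labelled heterozygous duodenal tumour 2. It was 12.8 and 3.58 FPKM in wildtype ileum tumours, 3.73 and 0.702 in knockout ileum tumours and 63.6 in the specimen labelled heterozygous duodenal tumour 2. None of the 18 other specimens passed 0.0934, so all 4 ileum tumours lay above them, and no fold is given against values so near 0. The gene passed the filter of at least 1 FPKM in at least 2 specimens only through the specimens where it was high, so a difference between those groups was built into its being tested.

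Nr1h4, the bile acid receptor, was present in every specimen. It was at 38.4 and 33.2 FPKM in wildtype ileum tumours, 18.3 and 15.6 in knockout ileum tumours and 68.1 in the specimen labelled heterozygous duodenal tumour 2. The 18 others ranged from 7.92 to 35.8, and 1 ileum tumour lay above them. Knockout ileum tumour 1 was inside the range of the normal colon and duodenum specimens, 15.9 to 34.0, and tumour 2 just below it. Most neighbouring groups overlapped, so that the order of organs was not resolved for this gene.

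Nr0b2, the repressor, was low throughout and highest in duodenum. Normal duodenum had 1.80 and 1.90 FPKM in wildtype and 2.16 and 0.667 in knockout. Duodenal tumours had 0.678 and 1.29 in knockout and 0.454 and 0.257 in heterozygous mice, the last in the specimen that went against its label. The ileum tumours had 0.369 and 0.0380 in wildtype and 0 and 0.109 in knockout, and no colon specimen passed 0.0635. It passed the filter through the duodenal specimens only.

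Ileum tumours were first set against colon tumours of the same genotype and run. In the wildtype 2 of the 7 genes were called higher by limma (adjusted p below 0.05 over all 14094 tested genes), against 7.07% of all tested genes. Slc51a was higher by 5.90 (SE 0.90, adjusted p = 0.00115) and Slc51b by 3.17 (SE 0.95, adjusted p = 0.049), both on the scale of log2(FPKM + 1). Fabp6 differed by 8.92 (SE 2.77, adjusted p = 0.0553) and Slc10a2 by 4.25 (SE 1.37, adjusted p = 0.0638), short of the threshold. All 7 genes had both ileum tumours above both colon tumours, which 24.4% of tested genes also did. For Fgf15 the filter described above built this in. Nr0b2 was near the floor, at 0.369 and 0.0380 FPKM against 0 in both colon tumours. The specimen labelled heterozygous duodenal tumour 2 was in neither group but entered the shared estimate of spread. Without it 5 genes were higher, against 9.25% of all genes, and the adjusted p was 0.000496 for Slc10a2, 0.000409 for Fabp6, 8.1e-05 for Slc51a, 0.00313 for Slc51b and 0.00131 for Fgf15, which was higher by 2.94 (SE 0.46). Without Fgf15, whose testing rested on the filter described above, these were 4 of 6. Nr1h4, at 1.18 (SE 0.44), had an adjusted p of 0.0956. The call of Slc51b held in 5 of 11 alternatives and was lost with no filter, with the compared groups alone, with the replicate number as a block, and on leaving out wildtype colon tumour 1 or either wildtype ileum tumour.

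In the knockout 1 of the 7 genes was higher in ileum than in colon tumours, against 7.17% of all tested genes. This was Slc51a, by 3.91 (SE 0.90, adjusted p = 0.0126). Slc10a2 differed by 3.21 (SE 1.37, adjusted p = 0.153), Slc51b by 1.35, Fgf15 by 1.43, Fabp6 by 1.83 and Nr1h4 by -0.41, with adjusted p from limma of 0.416, 0.524, 0.738 and 0.745 in that order. Without the specimen labelled heterozygous duodenal tumour 2, Slc10a2 joined Slc51a (adjusted p = 0.00299 and 0.00149), so that 2 were higher, against 8.62%. The call of Slc51a was lost on leaving out knockout colon tumour 2 or either knockout ileum tumour. Without knockout ileum tumour 1 the change of Fabp6 was -0.25, since knockout ileum tumour 2 alone lay among the colon tumours. In these groups 4 of the 7 genes, Slc10a2, Slc51a, Slc51b and Fgf15, had both ileum tumours above both colon tumours, as 32% of tested genes did. Of these 4, Fgf15 was tested only through the specimens where it was high.

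Against the mean of the other 10 groups, 4 of the 7 genes were higher in ileum tumours by limma, against 18% of all tested genes. Slc10a2 was higher by 3.98 (SE 0.76, adjusted p = 0.00194), Fabp6 by 6.88 (SE 1.54, adjusted p = 0.00483) and Slc51a by 3.47 (SE 0.50, adjusted p = 0.000365). Fgf15, the fourth, was tested only through the specimens where it was high and supports nothing, which leaves 3 of the other 6. It was higher by 1.91 (SE 0.70, adjusted p = 0.0469), and over the alternatives its adjusted p reached 0.2, with the call held in 10 of 31 and lost on leaving out any of 19 specimens, those other than wildtype duodenum and the heterozygous duodenal tumours. Slc51b differed by 1.34 (adjusted p = 0.0639; 0.0392 without wildtype colon tumour 2 and 0.0153 without heterozygous duodenal tumour 1) and Nr1h4 by 0.24 (adjusted p = 0.612). Without the specimen labelled heterozygous duodenal tumour 2, Slc51b, at 1.53 (SE 0.32, adjusted p = 0.00347), made 5 genes against 19.5%, or 4 of the 6 other than Fgf15, and Fgf15, at 2.21, had an adjusted p of 0.000106. These groups also mix Apc genotype, sex and run, which cannot be told apart from the organ here.

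**Figure D2:**
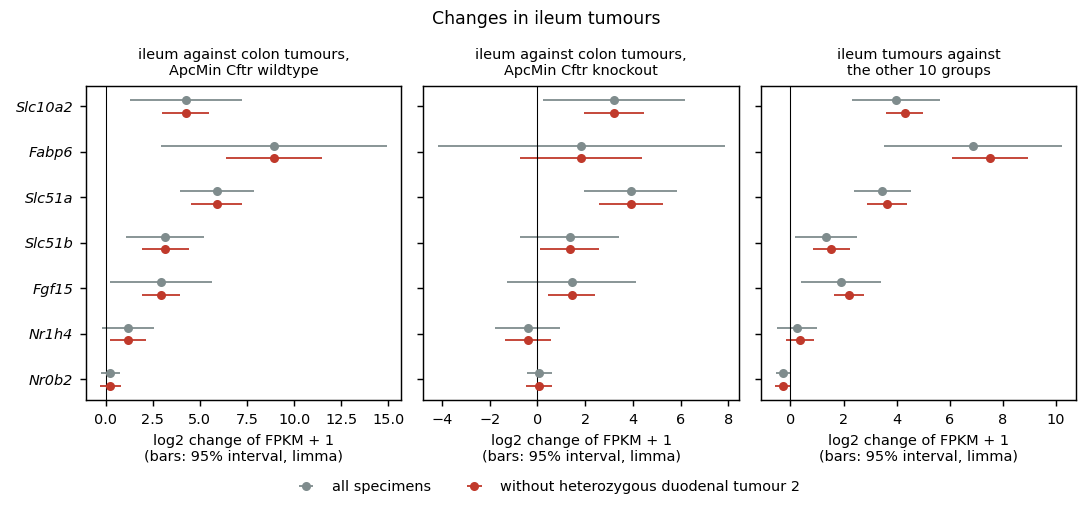
Change of each gene in ileum tumours as a difference of log2(FPKM + 1), with 95% intervals from limma, in 3 comparisons. Grey points use all specimens and red points leave out the specimen labelled heterozygous duodenal tumour 2. The intervals narrow without it, most for Fabp6, whose SE in the wildtype comparison went from 2.77 to 1.16.

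Knockout ileum tumours of ApcMin mice were also set against knockout duodenal tumours of mice with wildtype Apc, over run 2 columns, which hold no heterozygous specimen. Here 2 of the 7 genes were higher, against 10.2% of tested genes, and 1 lower, against 9.53%. Slc10a2 was higher by 4.16 (SE 0.60, adjusted p = 0.00192) and Fabp6 by 4.86 (SE 1.28, adjusted p = 0.0242), while Nr0b2 was lower by limma, at -0.83 (SE 0.24, adjusted p = 0.0375). Since Nr0b2 was tested only through duodenal specimens, its call is partly set by the filter, and 0 of the other 6 genes were lower. Slc51a, at 0.35 (95% interval -0.75 to 1.45), and Slc51b, at -0.07 (95% interval -1.40 to 1.25), did not pass the test, and these intervals leave room for a difference in either direction. Fgf15 differed by 1.47 (adjusted p = 0.0535, and 0.02 without knockout ileum tumour 2) and Nr1h4 by -0.58 (adjusted p = 0.406). The call of Fabp6 was lost without knockout ileum tumour 1 or knockout duodenal tumour 2, and that of Nr0b2 without either of these or knockout ileum tumour 2; Apc genotype and animal cannot be told apart from the organ.

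Within ileum tumours all 7 genes had a lower group mean on the log2(FPKM + 1) scale in the Cftr knockout than in the wildtype, and none passed the test. Limma called 0 of the 7 lower, against 0.0639% of all tested genes, and 0 of 7 had an unadjusted p below 0.05. Both knockout tumours lay below both wildtype tumours in 5 of the 7, as in 21% of tested genes. The changes were -5.19 for Fabp6 (SE 2.77, adjusted p = 0.98), -1.67 for Slc10a2, -1.56 for Slc51b, -1.49 for Fgf15, -1.19 for Slc51a and -1.03 for Nr1h4, the last 5 each with an adjusted p of 0.999. Without the specimen labelled heterozygous duodenal tumour 2, still 0 of 7 were called, against 0.199%, and 5 of 7 were lower at an unadjusted p below 0.05, against 4.34% of all tested genes. The adjusted p was then 0.115 for Fabp6 (95% interval -7.73 to -2.64) and 0.386 for Slc10a2. The ratio of the wildtype to the knockout mean was 16.6 for Fabp6 and between 2.11 and 3.69 for the other 5 named genes.

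The difference between ileum and colon tumours was compared between the Cftr genotypes directly. Limma called 0 of 7 genes and 0% of all tested genes, and 0 of 7 had an unadjusted p below 0.05 (5 of 7, all negative, without the specimen labelled heterozygous duodenal tumour 2, against 4.38% of all tested genes, with 0 of 7 and 0% called). Fabp6 had the largest estimate of the 7, -7.09 (SE 3.92, adjusted p = 0.935; without that specimen SE 1.65, adjusted p = 0.39). Slc51a was at -1.99 and Slc10a2 at -1.05, the latter turning to 0.05 without knockout ileum tumour 2. That Slc10a2 or Fabp6 differed less between ileum and colon in knockout mice was therefore not shown.

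The 2 knockout ileum tumours differed widely in Fabp6, which in tumour 1 was 18.2 times that in tumour 2, and in Slc10a2, with 4.91 times; the ratios of genotype means were 16.6 and 2.60. On the log2(FPKM + 1) scale the knockout tumours differed by 4.16 in Fabp6 and 2.20 in Slc10a2, and the genotypes by -5.19 and -1.67, so that only Slc10a2 differed more between the tumours than between the genotypes on both scales. The order of specimens was shared: the specimen labelled heterozygous duodenal tumour 2 was highest, followed by wildtype ileum tumours 1 and 2 and knockout ileum tumours 1 and 2, for Slc10a2, Fabp6, Slc51a, Slc51b and Nr1h4, 5 of the 7. Of all tested genes 2.28% had this order and 1.47% its reverse. The order was read from Slc10a2 itself, which meets it by construction, so that the count is a description. The full range over the ileum tumours was 186-fold for Fabp6, 18.2-fold for Fgf15, 10.1-fold for Slc10a2 and at most 4.12-fold for Slc51a, Slc51b and Nr1h4.

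Of the genes of proximal or absorptive small intestine, some were highest where Slc10a2 was lowest and others ran with it. In the same order, from the specimen labelled heterozygous duodenal tumour 2 to knockout ileum tumour 2, Gata4 was at 13.5, 5.02, 12.5, 14.3 and 29.5 FPKM. Fabp1, the liver-type fatty acid binding protein of the proximal enterocyte, was at 149, 38.1, 344, 300 and 1434, and lactase, Lct, at 2.36, 0.296, 5.22, 5.54 and 47.7. Apoa4 was at 471, 492, 1209, 739 and 1922. These 4 were highest in knockout ileum tumour 2 among the 5 specimens, where Fabp6 and Slc10a2 were lowest. None was in the full reverse order. The duodenal iron transporter Slc11a2 ran nearly with Slc10a2, at 28.7, 23.7, 21.9, 18.4 and 18.4, as did the aminopeptidase Anpep, at 2862, 1174, 1044, 704 and 738, while Onecut2 and Slc40a1 followed neither order. The colon marker Hoxb13 was at 22.4 in knockout ileum tumour 2 against 0.345 to 1.39 in the other ileum tumours. Fabp1, Lct, Apoa4 and Anpep were picked out of a list of 12 enterocyte genes and Slc11a2 out of 5 duodenal markers after their values were seen; the part of position along the gut in the members' levels was not tested.

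**Figure D3:**
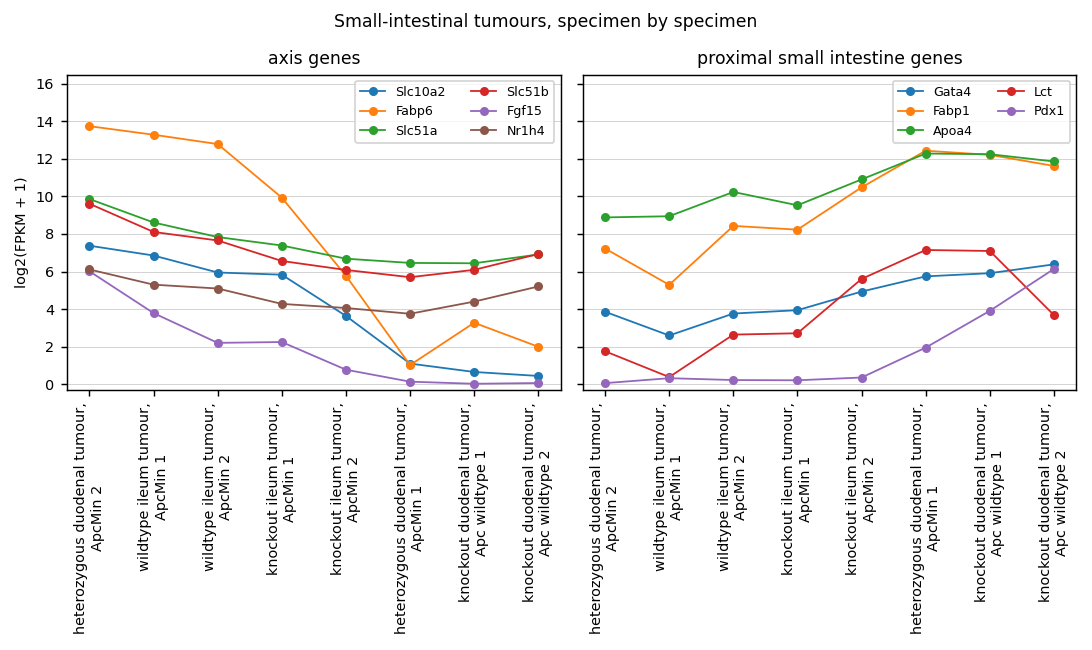
Levels as log2(FPKM + 1) in the 8 small-intestinal tumours, 1 line per gene, axis genes on the left and proximal genes on the right. From left to right in the first 5 specimens Slc10a2 and Fabp6 go down, and Gata4, Fabp1 and Lct are highest in the fifth, knockout ileum tumour 2.

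Cell type markers were read beside these values. In bulk tissue fewer cells of a type and less RNA per cell cannot be told apart. The summed level of 12 enterocyte genes was 10743 and 14113 FPKM in wildtype ileum tumours, 7777 and 11821 in knockout ileum tumours and 20206 in the specimen labelled heterozygous duodenal tumour 2, against 106 to 1539 in colon specimens. Within the ileum tumours it did not follow the order of Fabp6, being higher in knockout ileum tumour 2 than in tumour 1. The 9 epithelial genes summed to 7301 to 8351 in ileum tumours and 5109 to 10929 in the 18 other specimens, and the 6 fibroblast genes to 223 to 374 against 137 to 1025. The 5 smooth muscle genes summed to 397 to 482 against 94.8 to 2185, and the 6 leukocyte genes to 19.2 to 30.5 against 18.4 to 85.8. The 8 acinar pancreas genes summed to 80.9 to 102 against 9.07 to 937, with Amy2a5 at 0 everywhere, and the 6 hepatocyte genes to 23.1 to 80.9 against 5.93 to 57.3. The part of cell composition in the results was not tested.

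In normal tissue duodenum was compared with colon. Of the 7 genes 2 were higher in duodenum by limma, against 28.5% of all tested genes, and 0 lower, against 27.1%. Slc51a was higher by 5.44 (SE 0.71, adjusted p = 3.7e-05) and Nr0b2 by 1.32 (SE 0.19, adjusted p = 8.3e-05). The filter, which Nr0b2 passed only in duodenal specimens, sets the direction of its call, so that 1 of the other 6 genes stands against the share of all genes. Slc51b, one of 3 genes with every duodenum specimen above every colon specimen (32.7% of tested genes), differed by 1.71 (SE 0.75, adjusted p = 0.071). Slc10a2 was at -1.29 (SE 1.08, adjusted p = 0.334) and Nr1h4 at -0.69 (adjusted p = 0.263), and both had every duodenum specimen below every colon specimen, as 31% of tested genes did. Duodenum and colon came from the same animals, and with the animal as a block and the wildtype duodenum kept as 2 specimens, Slc10a2 and Nr1h4 were lower, against 34.1% of all tested genes, and 3 were higher, against 35.5%. Without the specimen labelled heterozygous duodenal tumour 2, 3 were higher, against 29.7%, and 1 lower, against 28.1%, with Slc51b now higher (adjusted p = 0.00667) and Slc10a2 lower (adjusted p = 0.028). The enterocyte genes summed to 27764 to 30108 in normal duodenum, and their part in the difference of Slc51a was not tested.

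Loss of Cftr in normal tissue changed none of the 7 genes past the test. Limma called 0 of 7 in colon and 0 of 7 in duodenum, against 0% of all tested genes in each, and 0 of 7 had an unadjusted p below 0.05 in either. In colon Slc10a2 had 3.04 and 4.00 FPKM in the knockout against 2.08 and 2.61 in the wildtype. In duodenum Slc51a had 181.5 and 211.3 against 229.7 and 221.6. With 2 specimens a group, and wildtype duodenum counted as 1, differences of this size were not resolved. In ApcMin colon tumours 0 of 7 genes were called between knockout and wildtype, against 0.0639%, and 0 of 7 had an unadjusted p below 0.05; Fabp6 had 50.1 and 82.3 against 53.8 and 4.53.

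Knockout duodenal tumours of mice with wildtype Apc were compared with normal knockout duodenum. Limma called 0 of 7 genes, against 8.17% of all tested genes, and 0 of 7 had an unadjusted p below 0.05. Slc51a, at 85.8 and 119.1 FPKM in the tumours against 181.5 and 211.3, and Slc51b, at 67.1 and 121.2 against 144.0 and 216.9, had both tumours below both normal specimens, as 30% of tested genes did. Fabp6, at 8.64 and 2.97 against 1.90 and 1.22, and Fgf15, at 0.0116 and 0.0401 against 0, had both tumours above, as 26.9% did. The Fgf15 values were near 0, and Fabp6 in knockout duodenal tumour 1 was 1.65 in run 1 and 15.6 in run 2. Against the ApcMin heterozygous duodenal tumours, over run 1 columns, 0 of 7 were called by limma, against 1.32%, with 1 of 7 at an unadjusted p below 0.05, against 18.9%. That result rested on the composition of the heterozygous group. With heterozygous duodenal tumour 1 left out, only the specimen that went against its label remained, so no test is given. With all columns averaged, 6 of the 7 genes in that specimen lay above the range of the other duodenal specimens and 1, Nr0b2, below it. Of these 6, Fgf15 was tested only through the specimens where it was high. Leaving out that specimen instead left heterozygous duodenal tumour 1 alone, so again no test is given. Estimates for 5 of 7 genes were then positive, meaning higher in the knockout tumours, and 2 were negative. In run 1 Fabp6 was at 1.65 and 3.11 FPKM in the knockout tumours against 1.02, and Slc10a2 at 0.497 and 0.353 against 1.13.

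ApcMin colon tumours were compared with normal colon over run 2 columns, with sex and Apc genotype differing together. Slc51a was the only 1 of 7 genes called higher, by 1.05 (SE 0.35, adjusted p = 0.0311), against 22.3% of all tested genes, and the adjusted p ran up to 0.6 over the alternatives. The call was lost on leaving out knockout colon 2, wildtype colon 2, knockout colon tumour 1 or wildtype colon tumour 2. Fabp6 differed by 2.27 (SE 0.90, adjusted p = 0.0615), and by 3.09 without wildtype colon tumour 2 (adjusted p = 0.0131). Of the 12 enterocyte genes some followed Fabp6 and others did not. Over wildtype colon tumours 1 and 2 and knockout colon tumours 1 and 2, Apoa1 was at 45.2, 3.16, 289 and 98.2 FPKM, while Fabp2 was at 42.6, 397, 160 and 308 and Alpi at 3.17, 30.1, 13.4 and 19.1, highest in wildtype colon tumour 2, where Fabp6 was lowest; all 3 were picked after their values were seen. Their part in the result was not tested.

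Fabp6 also differed between runs of the same specimen. Wildtype duodenum 2 had 0.940 FPKM in run 1 and 20.4 in run 2, wildtype duodenum 1 had 0.135 and 5.25, and knockout duodenal tumour 1 had 1.65 and 15.6. It was higher in run 2 in 8 of 11 specimens, Slc10a2 in 7 of 11 and Slc51b in 1 of 11. The part of the run in low Fabp6 values was not tested.

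**Figure D4:**
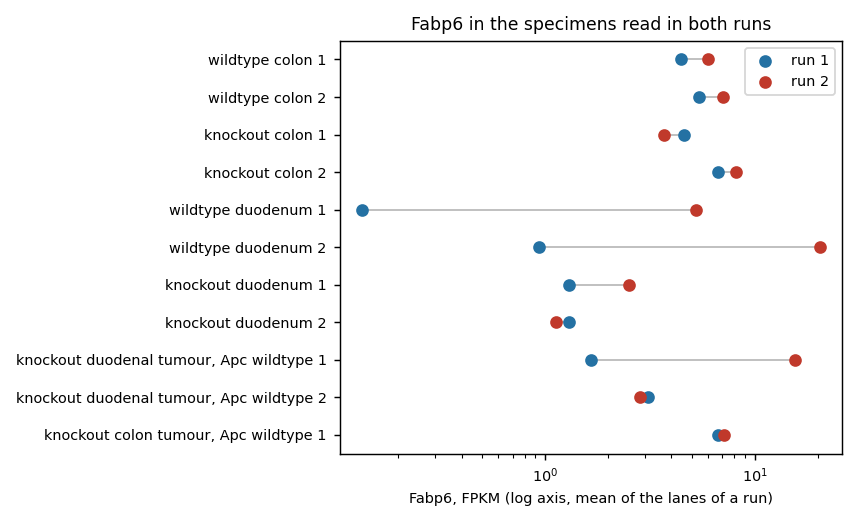
Fabp6 in FPKM on a log axis in the 11 specimens read in both runs, blue for run 1 and red for run 2, joined by a line. Wildtype duodenum 2 shows the largest rise, from 0.940 to 20.4.

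A further 46 genes of bile acid transport, sensing, synthesis and detoxification were taken as lists. The detoxification list held 5 genes, all tested. In wildtype ileum against colon tumours 4 of these 5 were higher and 0 lower, against 7.07% and 4.7% of all tested genes. Their median change was 2.91 on the log2(FPKM + 1) scale against 0.0026 over all tested genes. In the knockout comparison 2 of 5 were higher, against 7.17%. Cyp3a11, a cytochrome P450 that hydroxylates bile acids, was at 103 and 264 FPKM in wildtype ileum tumours and at 16.1 and 21.8 in knockout ileum tumours, and was 6.47 higher than in colon tumours in the wildtype (SE 0.80, adjusted p = 0.000279). Cyp3a25 was higher by 5.55 (adjusted p = 9.43e-05), Cyp3a13 by 2.91 (adjusted p = 0.00355) and the sulfotransferase Sult2b1 by 2.29 (adjusted p = 0.00033). With the compared groups alone the call of Cyp3a13 was lost. Against knockout duodenal tumours the same list went the other way, with 0 of 5 higher and 4 of 5 lower in knockout ileum tumours by limma, against 10.2% and 9.53% of all tested genes, and a median change of -1.88 against 0.01.

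Of the other transporters 5 of 7 were tested. Against the other 10 groups 2 were higher and 1 lower in ileum tumours, against 18% and 19.4% of all tested genes. Their median change was 0.16 against -0.01 over all tested genes. Abcc3, a basolateral exporter of organic anions, was lower by limma, at -1.74 (SE 0.23, adjusted p = 0.000225), with 8.97 to 16.8 FPKM in ileum tumours and 15.6 to 84.2 in the 18 other specimens. Abcc4 was higher by 0.80 (adjusted p = 0.00518), a call lost against other tumours alone. Abcc2, an apical exporter, was higher in ileum than in colon tumours of the knockout by 3.11 (SE 0.61, adjusted p = 0.00508). Abcb1a was at 53.0 to 167 and Abcg2 at 27.2 to 51.0 FPKM in ileum tumours, inside the ranges of the 18 other specimens.

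Among the bile acid receptors and their partners 7 of 9 were tested. Against the other 10 groups 0 were higher and 2 lower, against 18% and 19.4% of all tested genes, with a median change of -0.15. Vdr, the vitamin D receptor, which also binds lithocholic acid, was at -0.81 (adjusted p = 0.0354) and Rxrb, a partner of nuclear receptors, at -0.15 (adjusted p = 0.0136); both calls were lost against other tumours alone and on leaving out some single ileum tumours. Ppara was 1.65 higher than in colon tumours in the wildtype (adjusted p = 0.00637), a call lost with the compared groups alone. Rxra, the partner of the farnesoid X receptor, was at 22.6 to 27.1 FPKM in ileum tumours against 13.7 to 42.5 elsewhere, and Nr1i2, the pregnane X receptor, at 20.3 to 27.5 against 11.5 to 55.5.

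All 9 transcription factors known for regional identity or for driving these genes were tested. In the wildtype 3 were higher and 0 lower than in colon tumours, against 7.07% and 4.7% of all tested genes. Their median change was 0.47 against 0.0026 over all tested genes. Hnf4g was at 48.5 to 57.6 FPKM in ileum tumours and higher than in wildtype colon tumours by 2.82 (SE 0.24, adjusted p = 2.46e-05), and Gata6 by 0.78 (adjusted p = 0.00104), the latter a call lost with the compared groups alone. In the knockout 3 were higher and 2 lower, against 7.17% and 6.21% of all tested genes, with a median of 0.05 against 0.02. Gata4 was higher by 3.31 (limma adjusted p = 0.00471), a call lost without knockout ileum tumour 2. Cdx1 was at -1.20 (limma adjusted p = 0.0142), a call lost without knockout colon tumour 2 or either knockout ileum tumour.

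For Fgf15 signalling 6 genes were listed, the receptors Fgfr1, Fgfr2, Fgfr3 and Fgfr4 with Klb and Malrd1. Among them Klb was at 0.248 to 0.584 FPKM in ileum tumours. The 5 tested genes had a median change of -0.28 in ileum tumours against the other 10 groups. Of these 1 was higher and 2 were lower, against 18% and 19.4% of all tested genes. Fgfr4, the main receptor of Fgf15 in liver, was at 8.61 to 9.46 FPKM in the ileum tumours and higher by 0.59 (SE 0.08, adjusted p = 0.000331), a call lost against other tumours alone. Fgfr1 was at -0.28 (adjusted p = 0.0126), a call lost without knockout ileum tumour 2 or the knockout colon tumour with wildtype Apc. Fgfr3 was at -0.85 against wildtype colon tumours (adjusted p = 0.0408), a call held in 4 of 11 alternatives and lost with no filter, the compared groups alone, run 2 columns alone, the replicate block, and without wildtype colon tumour 2 or either wildtype ileum tumour. Of the synthesis genes 6 of 10 were tested, with a median change of 0.43 in ileum against colon tumours of the knockout. There 2 were higher and 1 lower, against 7.17% and 6.21% of all tested genes. Hsd3b7, an early enzyme of bile acid synthesis, was at 39.6 to 45.4 FPKM in ileum tumours and above all 18 other specimens, which had 18.1 to 37.3; it was higher by 0.84 (adjusted p = 0.00534), a call lost without knockout colon tumour 1. Cyp39a1 was at -0.53 in the wildtype (adjusted p = 0.00435), a call lost with the compared groups alone or without wildtype ileum tumour 2. Amacr was at 0.41 in the knockout (adjusted p = 0.0391), a call lost on leaving out any of the 4 specimens compared. Between knockout and wildtype ileum tumours 0 genes of any of the 6 lists were called by limma, against 0.121% of all tested genes.

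The genes most like each member over the 12 group means of log2(FPKM + 1) were found among genes with a group mean of at least 5 FPKM. Plb1, a brush border phospholipase, was among the 3 most like both Slc10a2 (r = 0.955) and Fabp6 (r = 0.957), and stayed at 0.951 and 0.952 without the specimen labelled heterozygous duodenal tumour 2. It was at 26.8 and 91.5 FPKM in wildtype ileum tumours, 9.50 and 3.42 in knockout ileum tumours, 75.4 in that specimen and at most 0.747 in the 18 others. The other genes most like these members fell further without that specimen. For Slc10a2 they were Ppp2r2b (0.957, then 0.806) and Igfbp1 (0.954, then 0.727). For Fabp6 they were Bpifb9a (0.942, then 0.830) and Tbx1 (0.929, then 0.739). Slc51a was most like Enpep (r = 0.983), an aminopeptidase, Amn (r = 0.981), the partner of Cubn, and Apob (r = 0.980), the lipoprotein of chylomicrons. Slc51b was most like Acot4 (r = 0.979), Gm11437 (r = 0.974) and Slc3a1 (r = 0.971). Fgf15 was most like Asb4 (r = 0.969), which fell to 0.673 without that specimen, Plekhg2 (0.956, then 0.920) and Igfbp1 (0.955, then 0.775). For Nr1h4 the highest r was 0.900, with 1810011O10Rik, and 0.652 without that specimen. These are descriptions over 12 groups that share animals and runs.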

How the data were processed

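The authors deposited 1 table of FPKM values with 68 columns, 1 per specimen, run and lane; TopHat2 2.0.13 and Cuffnorm (version not given in the sources used here) on mm10 are named in the submitters' processing notes. Columns were averaged per specimen, and 2 repeated gene names were left out. Tests used limma 3.58.1 (R 4.3.3) on log2(FPKM + 1), with each group its own mean, 1 shared trended spread and Benjamini-Hochberg adjustment over 14094 genes with at least 1 FPKM in at least 2 specimens; the routine was tested on simulated data. A fold on this scale understates changes of low genes. In all 13 comparisons were made. Pathway genes are named where they passed in 1 of the first 3 comparisons (with the largest change) or by level. Members and lists were chosen with earlier results of these data known, and omission of the specimen labelled heterozygous duodenal tumour 2 after seeing the data. Normal duodenum and colon share animal numbers; deviations of paired specimens correlated at 0.0332 in knockout and 0.0103 in wildtype mice. The ranges of summed marker levels are sums of FPKM. Python 3.11.15 and pandas 2.3.3 were used.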

Additional observations from a re-analysis of the deposited data

How the results depend on the processing

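Over the alternatives 957 changes of single genes were recomputed for 61 results: 815 kept direction and side of the threshold, 96 fell short of it, 40 newly passed it and 6 reversed. Slc10a2, Fabp6 and Slc51a against the other 10 groups passed in 31 of 31 settings. The number of members called higher in ileum than in colon tumours of the wildtype (2) was 1 with no filter on low values, 4 with quantile normalisation, 5 with run 2 columns alone and 5 without the specimen labelled heterozygous duodenal tumour 2; in the knockout (1) it was 2 in each of the last 2 settings. Against knockout duodenal tumours the higher count (2) was 1 with the compared groups alone or both runs averaged, and the lower count (1) was 0 with no filter, the compared groups alone or the replicate block. For knockout against wildtype ileum tumours the lower count (0) was 1 with the compared groups alone and 4 with the replicate number as a block; the numbers there do not pair animals, and the deviations of same-numbered ileum tumours correlated at 0.2 (0.35 for knockout and wildtype ApcMin colon tumours, -0.0678 to 0.0743 for the other tumour and colon pairings). For normal duodenum against colon the lower count (0) was 2 with the compared groups alone, 2 with the animal as replicate block and 1 without that specimen. For ApcMin colon tumours against normal colon the higher count (1) was 0 with no filter, both runs averaged or the replicate block. The block moved no other count of members called by over 1.5 times. Leaving out 1 specimen gave 1 to 2 higher in wildtype and 0 to 1 in knockout ileum against colon tumours, 3 to 5 higher and 0 to 1 lower (1 without knockout duodenum 2) against the other 10 groups, 1 to 3 higher and 0 to 1 lower against duodenal tumours, 0 to 5 lower (5 without heterozygous duodenal tumour 1) for knockout against heterozygous duodenal tumours, and 0 to 1 higher and 0 to 2 lower (2 without wildtype colon tumour 2) for colon tumours against normal colon. The count without heterozygous duodenal tumour 1 included Fgf15, which was tested only through the specimens where it was high. It also rested on 1 specimen assumed to vary like the other groups. With quantile normalisation Slc51b against knockout duodenal tumours reversed to 0.16. Leaving out 1 specimen in turn, it ran from -0.50 to 0.36 (positive without knockout duodenal tumour 2 and, at 0.17, without knockout ileum tumour 2), Slc51a there from -0.0017 (without knockout ileum tumour 1) to 0.70, Fabp6 in ileum against colon tumours of the knockout from -0.25 (without knockout ileum tumour 1) to 3.91, and Slc10a2 in the difference between genotypes from -2.15 to 0.051 (without knockout ileum tumour 2). The cause was not tested. With the depth unknown, no precision could be given for values near 0.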
